A study of Homo sapiens with 18 samples.

Results

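The genes described here are 47 genes that copy DNA or prepare cells for S phase, chosen as a list of gene symbols. All 47 were present among the 23411 symbols counted in each sample, and all 47 passed the filter on low counts over the 18 samples. The cells were ARPE-19, a human retinal pigment epithelium line that arose spontaneously in culture. Control cells had received the Cas9 vector without a gRNA. NRF2 ΔC cells were 1 clone, labelled C1, that carried a CRISPR/Cas9 edit in NFE2L2, the gene for the stress-responsive transcription factor NRF2, and lacked the C-terminal part of the protein. Both kinds of cells were left untreated, with water as vehicle, or received 1 mM NACET, the cell-permeable ethyl ester of the antioxidant N-acetylcysteine, or 0.2 mM H2O2, an oxidant. Each of the 6 groups held 3 samples. The series text gives 40 h of culture in 10 % serum and 8 h of treatment, whereas the sample labels give 22 h in 1 % serum and 2 h, and which applies was not settled. The labels do not say whether replicates were separate cultures, so p-values measure the spread between these samples, which may be technical. A single clone also means that the edit and the clone cannot be told apart.

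Before a cell copies its DNA, the origin recognition complex, CDC6 and CDT1 load rings of MCM2 to MCM7 onto origins in G1. CDC45 and the GINS proteins then turn the rings into moving helicases, and polymerases, the PCNA clamp with its RFC loader, and enzymes that supply nucleotides follow. Many of these genes are transcribed together at the passage from G1 to S by E2F transcription factors, which RB family proteins hold back until cyclin-dependent kinases act. CDK inhibitors such as p21, the product of CDKN1A, oppose that passage.

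The bases before the transcription start are shown for 9 members named in the results below. They were chosen after values were seen and do not represent the share of members with an E2F site. Of the 47 members, 41 had a promoter in the RefSeq table of build GRCh38.p14. The 250 bases before each start were searched on both strands for TTTCCCGC, TTTCGCGC, TTTGCCGC or TTTGGCGC, the E2F site. At least 1 match was found for 17 of the 41 genes (41.5 %), against 928 of 27305 genes of the table (3.40 %). The core of the antioxidant response element bound by NRF2, TGACNNNGC, was found for 9 of 41 members (22.0 %) and 3609 of 27305 genes (13.2 %). A match is a description of letters, not of binding. DTL (strand +, chr1:212035628-212035747), E2F1 (strand -, chr20:33686386-33686505), GINS2 (strand -, chr16:85688955-85689074), POLA2 (strand +, chr11:65261842-65261961), UHRF1 (strand +, chr19:4909381-4909500, 1 of 3 starts in the table) and MCM6 (strand -, chr2:135876444-135876603) hold sites, in capitals, and were higher with NACET than with H2O2 in at least 1 cell line. ORC1 (strand -, chr1:52404424-52404543) had no match in its window. CDC6, MCM10 and RFC4, not shown, were higher with NACET than with H2O2 in both lines and had no match either. The windows of GINS3 and ORC6, which rose with NACET in both lines with the replicate block, also held none. Whether sites go with the changes was not tested. MCM7 (strand -, chr7:100101398-100101597, 1 of 3 starts) and PCNA (strand -, chr20:5126623-5126742, 1 of 2 starts) also hold sites. MCM7 fell with NACET in NRF2 ΔC cells and PCNA rose with H2O2 in both lines, both in tests with the replicate block. Each sequence ends at the base before the start.
DTL: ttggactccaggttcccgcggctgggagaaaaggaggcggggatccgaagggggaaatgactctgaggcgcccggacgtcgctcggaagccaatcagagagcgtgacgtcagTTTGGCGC
E2F1: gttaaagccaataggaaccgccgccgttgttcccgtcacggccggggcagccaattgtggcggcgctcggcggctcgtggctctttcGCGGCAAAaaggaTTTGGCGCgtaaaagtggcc
GINS2: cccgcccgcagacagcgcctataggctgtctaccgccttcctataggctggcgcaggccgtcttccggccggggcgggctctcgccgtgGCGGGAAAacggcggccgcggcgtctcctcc
POLA2: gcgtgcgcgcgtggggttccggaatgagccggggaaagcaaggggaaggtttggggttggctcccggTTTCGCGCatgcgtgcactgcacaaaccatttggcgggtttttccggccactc
UHRF1: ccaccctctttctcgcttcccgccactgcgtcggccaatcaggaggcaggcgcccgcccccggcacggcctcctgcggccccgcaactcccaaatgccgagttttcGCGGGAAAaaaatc
MCM6: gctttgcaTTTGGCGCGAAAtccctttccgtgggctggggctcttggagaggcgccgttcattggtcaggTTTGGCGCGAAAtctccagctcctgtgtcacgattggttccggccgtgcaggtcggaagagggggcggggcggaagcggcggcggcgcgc
ORC1: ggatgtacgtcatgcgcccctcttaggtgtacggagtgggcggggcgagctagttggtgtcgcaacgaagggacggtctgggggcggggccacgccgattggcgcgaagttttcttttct
MCM7: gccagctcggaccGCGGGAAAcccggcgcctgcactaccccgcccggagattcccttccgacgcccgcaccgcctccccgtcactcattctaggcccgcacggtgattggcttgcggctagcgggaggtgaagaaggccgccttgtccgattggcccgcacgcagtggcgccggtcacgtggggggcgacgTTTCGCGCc
PCNA: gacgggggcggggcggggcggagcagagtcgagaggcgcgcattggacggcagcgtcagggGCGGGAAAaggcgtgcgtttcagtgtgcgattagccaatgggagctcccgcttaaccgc
In DTL the site started 8 bases before the transcription start and in UHRF1 14 bases before it. In MCM6 the 4 matches form 2 overlapping pairs on opposite strands, each pair within 1 run of capitals.

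The libraries held 16673306 to 25951154 reads on genes (median 21447434), and the members took 0.174 to 0.485 % of them. NFE2L2 itself was at 124 ± 2.44 CPM in untreated control cells and 126 ± 1.89 CPM in untreated NRF2 ΔC cells (SD, n = 3 each), so its total count did not show the edit. CPM are counts scaled to TMM-normalized library size. Of the pigment epithelium markers, MITF (64.9 to 187 CPM), OTX2 (105 to 180 CPM), KRT8 and KRT18 were present in all 18 libraries, while RPE65 and TTR, markers of the mature epithelium, were at 0 in 14 and 15 of them. The rest of that list was low, with medians over the libraries of 0.0486 (TYR), 0.207 (RLBP1), 0.492 (BEST1), 1.08 (SERPINF1), 2.06 (PMEL) and 3.76 CPM (TYRP1). BEST1 reached 3.54 CPM, in an NRF2 ΔC library with H2O2. Of the photoreceptor markers given here, PDE6B was at 3.98 to 6.86 CPM in control and 0 to 0.213 CPM in NRF2 ΔC libraries, CRX was at 0 in all 18, and NRL and ARR3 were above 0 in all. The part of this difference between the lines in the members' values was not tested. The 3 endothelial markers summed to at most 1.64 CPM and the 3 leukocyte markers, with CD3E at 0 in all 18, to at most 0.116 CPM. Within a cell line, deviations from the group means were correlated between samples of the same number, with r from 0.308 to 0.723 over 14153 genes in 18 pairs. Over the 47 members alone r ran from -0.30 (replicate 2 of NACET and untreated NRF2 ΔC cells) to 0.798, and with H2O2 in NRF2 ΔC cells replicates 2 and 3 had r of 0.416 and 0.484 with their own number and of 0.433 and 0.533 with another. The rule for pairing used all genes, so results with the replicate number as a block are given beside those without it. Between untreated samples of the cell lines the 3 correlations ran from -0.15 to 0.567.

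By their median over genes, the members were lowest in replicate 1 of every group and highest on average in the NACET group of each line. Each gene's log2 CPM was set against its mean over the 18 samples, and the median over the 47 genes was taken in each sample. In control cells it was -0.76, -0.07 and 0.07 untreated, 0.00, 0.44 and 0.45 with NACET, and -0.64, -0.09 and -0.11 with H2O2. In NRF2 ΔC cells it was -0.51, 0.31 and 0.56 untreated, 0.12, 0.54 and 0.85 with NACET, and -0.75, -0.28 and 0.04 with H2O2. Replicate 1 had the lowest value of its group for 47 of 47 members in untreated and H2O2-treated control cells, and for 40 to 46 members in the other 4 groups. This spread between replicates entered every test made without the block. Fewer cells in S phase and less of these mRNAs per cell cannot be told apart in bulk samples.

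NACET was compared with no treatment in control cells to ask how the added antioxidant moved these genes. ORC1, the largest subunit of the origin recognition complex, and DTL, which directs the destruction of CDT1 during S phase, rose, with log2 fold changes of 1.22 ± 0.23 (SE, edgeR adjusted p = 0.0353) and 0.99 ± 0.20 (SE, edgeR adjusted p = 0.0396). With edgeR, the low-count filter and no block they were the 2 members that met both limits for a DEG, an adjusted p under 0.05 and an absolute log2 fold change not below 0.6, while 1.39 % of all genes tested were DEGs in the higher direction. DESeq2 called 14 members, all higher, and 3.17 % of all genes in either direction. With the replicate number as a block 20 members rose, against 3.65 % of all genes, and none fell. The block total includes 6 of 10 licensing genes, 3 of 6 of helicase activation, 3 of 5 G1/S regulators and 5 of 7 genes of chromatin assembly, histone mRNA, licensing turnover and checkpoint. It holds only 2 of 8 polymerase and primase genes, 1 of 7 of the clamp, its loader and Okazaki fragment joining, and 0 of 4 of nucleotide supply.

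ORC1 in control cells was at 6.18, 9.93 and 11.3 CPM untreated, 16.6, 23.5 and 23.3 with NACET and 6.01, 9.64 and 9.66 with H2O2. ORC1 in NRF2 ΔC cells was at 6.78, 15.1 and 19.2 CPM untreated, 15.6, 21.5 and 26.6 with NACET and 3.80, 7.23 and 12.2 with H2O2. All 3 NACET samples of control cells were above the 3 untreated ones, whereas in NRF2 ΔC cells the groups overlapped. DTL in control cells was at 23.0, 36.4 and 38.6 CPM untreated, 55.3, 71.9 and 66.5 with NACET and 29.5, 46.2 and 42.4 with H2O2. DTL in NRF2 ΔC cells was at 31.9, 61.0 and 71.8 CPM untreated, 64.5, 90.6 and 100.2 with NACET and 27.8, 39.3 and 50.2 with H2O2. DTL had its highest group mean with NACET in both lines. CDC6 in control cells was at 28.3, 55.5 and 56.8 CPM untreated, 76.7, 110.2 and 96.0 with NACET and 36.1, 63.1 and 52.6 with H2O2. CDC6 in NRF2 ΔC cells was at 34.5, 61.2 and 78.1 CPM untreated, 75.6, 96.8 and 118 with NACET and 29.7, 40.3 and 52.8 with H2O2. CDC6, the loader of the MCM ring, had the second largest log2 fold change with NACET in control cells, 1.02 ± 0.26 (SE, edgeR adjusted p = 0.076), and 1.05 (edgeR adjusted p = 1.89e-41) with the block. With the block the 6 samples of a pair leave few residual degrees of freedom, so edgeR draws a gene's spread largely from other genes. The size of a p-value with the block is therefore not the certainty for that gene over its 3 pairs. Without a block, CDC6 was called in 0 of 6 fits that left out 1 library. E2F1 in control cells was at 19.3, 27.2 and 35.4 CPM untreated, 35.5, 53.5 and 56.9 with NACET and 17.9, 23.0 and 27.2 with H2O2. E2F1 in NRF2 ΔC cells was at 19.9, 48.3 and 56.1 CPM untreated, 45.0, 63.2 and 83.9 with NACET and 16.9, 30.5 and 40.7 with H2O2. E2F1, an activator of S phase genes, was highest with NACET in each replicate number of both lines, and rose in control cells with the block, by 0.85 (edgeR adjusted p = 2.79e-25), and with DESeq2, against 0.84 ± 0.24 (SE, edgeR adjusted p = 0.0999) without a block.

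Over the 47 members the median log2 fold change with NACET in control cells was 0.54, beside -0.01 over all 13696 genes tested. The difference was positive in 3 of 3 replicate numbers for 42 members (29.2 % of all genes), and NACET and untreated samples did not overlap, with NACET higher, for 19 (12.8 % of all genes). At an unadjusted p under 0.05 there were 25 members (20.8 % of all genes). The members below 0 were MCM7 (-0.52), LIG1 (-0.08) and TK1 (0.00 after rounding). The pair of DEGs depended on single libraries, since 0 members were DEGs when any library other than replicate 3 of untreated cells was left out, and 0 without replicate 1 of both groups.

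The median change of 46 members tested in NRF2 ΔC cells with NACET was 0.33 on the log2 scale. No member was a DEG with edgeR, beside 0.458 % of all genes higher and 0.93 % lower, 3 members were under an unadjusted p of 0.05 (18.6 % of all genes), and DESeq2 called 1. With the replicate block CDC6, CDT1, DTL, E2F1, GINS3, ORC1, ORC6, RFC4 and TIPIN rose (9 of 46 members tested, against 3.67 % of all genes). All 9 were among the 20 that rose with the block in control cells, of which they make up 45.0 %. MCM7 fell, at -0.90 (edgeR adjusted p = 1.47e-07) on the log2 scale with the block, where 5.15 % of all genes fell. Of the 46, 33 were higher in 3 of 3 replicate numbers (31.3 % of all genes). Replicate 1 gave a median difference of 0.68, replicates 2 and 3 of 0.28 and 0.26. Without replicate 1 of untreated NRF2 ΔC cells the median was 0.10. Without replicate 1 of both groups 2 members were DEGs, CDC6 (higher) and MCM7 (lower), and 5.68 % of all genes in either direction.

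MCM7, one subunit of the ring, had changes with NACET of the opposite sign to MCM2 to MCM6 in both lines, and was singled out after its values were seen. MCM7 in control cells was at 156, 193 and 242 CPM untreated, 101, 144 and 164 with NACET and 129, 163 and 199.8 with H2O2. MCM7 in NRF2 ΔC cells was at 154, 282 and 320.2 CPM untreated, 92.8, 139 and 172 with NACET and 117, 225 and 264 with H2O2. Within each replicate number of both lines the NACET sample was below the untreated one. In control cells the change with NACET was -0.52 ± 0.21 (SE, edgeR adjusted p = 0.202), and -0.53 (edgeR adjusted p = 3.76e-16) with the block, which is short of the fold limit. MCM2 to MCM6 had log2 fold changes from 0.46 to 0.66 in the same comparison. The largest overlap of MCM7 with a single exon of AP4M1, on the opposite strand, is 224 bases, or 4.52 % of its exon length. Reads were counted without regard to strand.

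Whether NACET acted differently in the lines was tested as an interaction over 12 samples. No member was called with edgeR (0.0643 % of all genes in the lower direction), with DESeq2 or with the replicate block within each cell line (0.764 % of all genes), and 0 members were under an unadjusted p of 0.05 (1.63 % of all genes). All 47 interaction estimates, NRF2 ΔC minus control, were below 0, with a median of -0.20 and a range from -0.61 (ORC1) to -0.04 (CDT1). They share the same 6 untreated samples, and without replicate 3 of untreated NRF2 ΔC cells the median was 0.02.

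**Figure D1:**
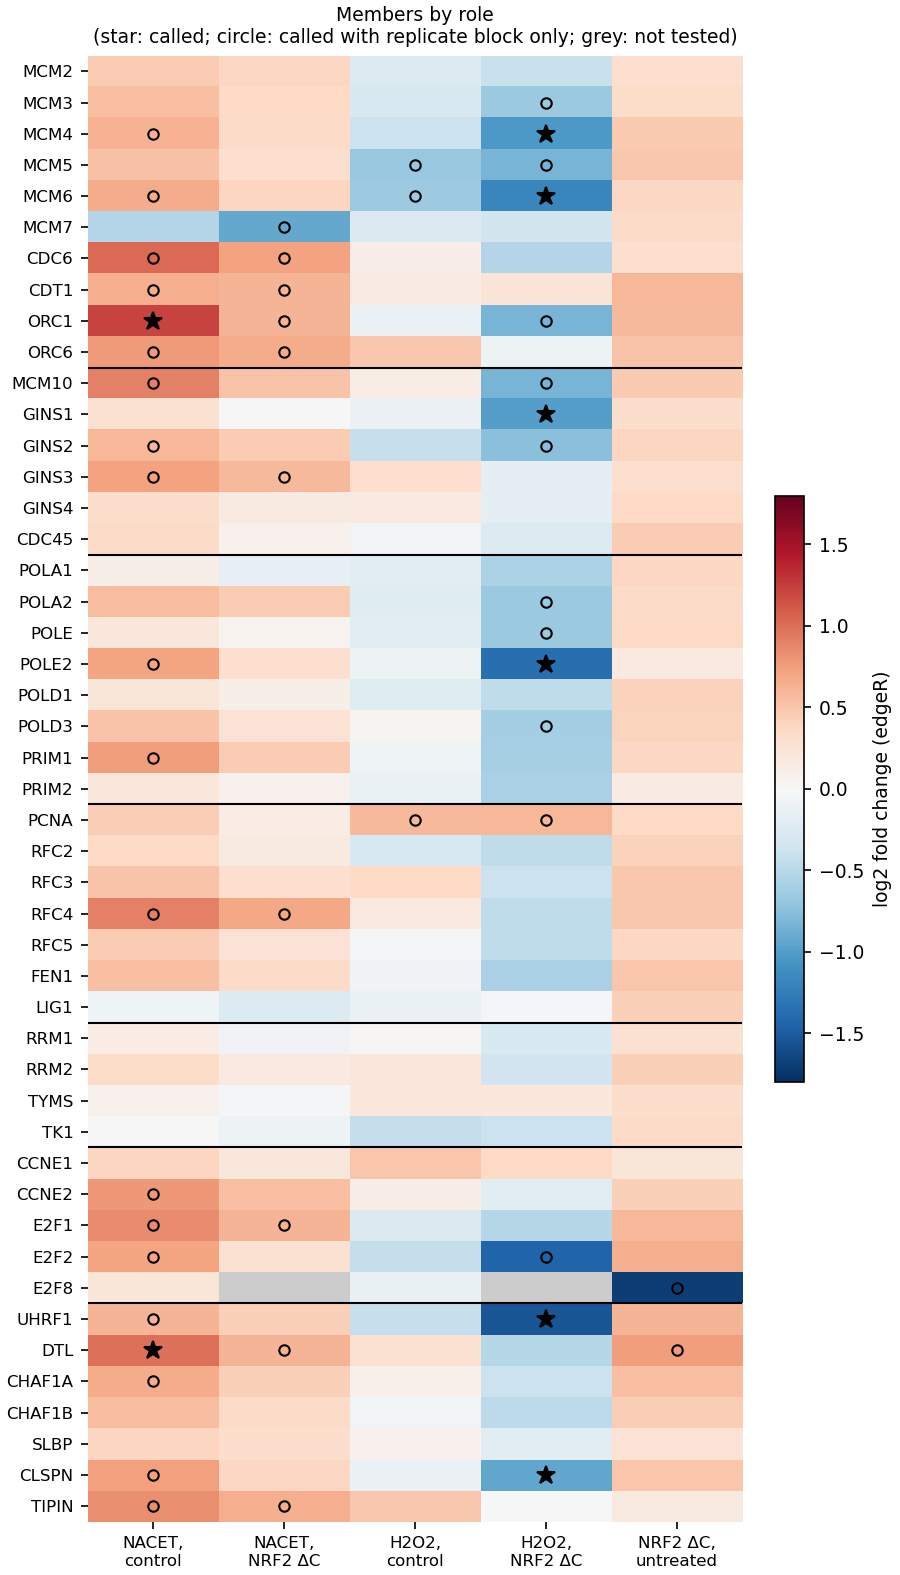
Log2 fold change (color) of the 47 members, grouped by role between black lines, in 5 comparisons (columns, NACET or H2O2 against untreated in each cell line, and NRF2 ΔC against control cells untreated). Stars mark DEGs and circles members called with the replicate block but not without it, which make 20 marks for NACET in control cells and 6 stars for H2O2 in NRF2 ΔC cells.

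H2O2 was compared with no treatment to ask what an oxidant did. In NRF2 ΔC cells 6 members fell, and none rose, without the block. They were UHRF1, which brings the maintenance methyltransferase to newly copied DNA, POLE2, the second subunit of the leading-strand polymerase, MCM6 and MCM4 of the ring, GINS1 of the helicase, and CLSPN, an adaptor of the replication checkpoint. Of all genes tested 5.55 % were DEGs in that direction. With the block 15 of 46 members fell (11.5 % of all genes), adding E2F2, GINS2, MCM3, MCM5, MCM10, ORC1, POLA2, POLD3 and POLE. PCNA, the sliding clamp, rose with the block (7.26 % of all genes).

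UHRF1 in control cells was at 17.6, 26.9 and 24.2 CPM untreated, 29.1, 42.1 and 33.2 with NACET and 14.7, 20.5 and 16.4 with H2O2. UHRF1 in NRF2 ΔC cells was at 23.1, 40.7 and 41.8 CPM untreated, 43.1, 43.5 and 58.2 with NACET and 9.92, 8.72 and 18.2 with H2O2. All H2O2 values of UHRF1 in NRF2 ΔC cells were below all other values of that line, and the log2 fold change was -1.53 ± 0.32 (SE, edgeR adjusted p = 0.0218). POLE2 in control cells was at 4.04, 8.77 and 9.94 CPM untreated, 8.35, 14.5 and 14.2 with NACET and 4.71, 8.02 and 8.38 with H2O2. POLE2 in NRF2 ΔC cells was at 5.71, 8.18 and 11.9 CPM untreated, 7.98, 10.8 and 13.5 with NACET and 2.93, 2.92 and 4.31 with H2O2. The change of POLE2 was -1.36 ± 0.30 (SE, edgeR adjusted p = 0.0253) in NRF2 ΔC cells, with no overlap of the groups, and -0.10 ± 0.34 (SE, edgeR adjusted p = 0.881) in control cells, where the groups overlapped.

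MCM6 in control cells was at 56.5, 100.3 and 107 CPM untreated, 114, 149 and 152 with NACET and 50.7, 58.5 and 58.6 with H2O2. MCM6 in NRF2 ΔC cells was at 63.7, 119.8 and 159.7 CPM untreated, 119, 146 and 189 with NACET and 39.1, 53.9 and 61.3 with H2O2. MCM6 changed by -1.17 ± 0.31 (SE, edgeR adjusted p = 0.043) in NRF2 ΔC cells. MCM4 in control cells was at 166, 276 and 278 CPM untreated, 297, 434 and 376 with NACET and 143, 211 and 199 with H2O2. MCM4 in NRF2 ΔC cells was at 204, 359.8 and 437 CPM untreated, 345, 418 and 519 with NACET and 133, 161 and 204 with H2O2. MCM4 changed by -1.03 ± 0.27 (SE, edgeR adjusted p = 0.0449) there, and replicate 3 with H2O2 stood at the level of replicate 1 untreated. GINS1 in control cells was at 18.0, 29.4 and 31.2 CPM untreated, 25.7, 35.0 and 33.4 with NACET and 20.7, 26.3 and 26.2 with H2O2. GINS1 in NRF2 ΔC cells was at 21.6, 35.6 and 40.9 CPM untreated, 27.2, 32.5 and 40.8 with NACET and 15.5, 13.1 and 21.3 with H2O2. GINS1 changed by -0.997 ± 0.27 (SE, edgeR adjusted p = 0.0449), without overlap. CLSPN in control cells was at 23.2, 42.2 and 40.0 CPM untreated, 50.5, 71.3 and 52.5 with NACET and 22.3, 42.0 and 33.0 with H2O2. CLSPN in NRF2 ΔC cells was at 35.5, 48.7 and 64.8 CPM untreated, 59.2, 59.2 and 77.3 with NACET and 22.1, 22.6 and 33.9 with H2O2. For CLSPN the change was -0.94 ± 0.25 (SE, edgeR adjusted p = 0.0455), also without overlap.

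The median over the 46 members tested in NRF2 ΔC cells was -0.47 with H2O2, beside -0.01 over all genes. H2O2 was lower in 3 of 3 replicate numbers for 36 members (32.4 % of all genes), and lower without overlap for 6 (15.7 % of all genes). At an unadjusted p under 0.05 there were 13 members (29.7 % of all genes, in either direction). The count of DEGs rested on single libraries. It was 0 without replicate 2 of the H2O2 group or without replicate 2 or 3 of untreated cells, 3 without replicate 3 of the H2O2 group, and 15 without replicate 1 of untreated cells. Without replicate 1 of both groups it was 19, where 17.9 % of all genes were called in either direction.

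In control cells the median change of the members with H2O2 was -0.08. No member was a DEG (2.96 % of all genes higher and 3.37 % lower), and 5 were under an unadjusted p of 0.05 (30.7 % of all genes). DESeq2 called 2 (5.36 % of all genes in either direction). Without replicate 1 of both groups edgeR called 1 (2.06 % of all genes in either direction). With the block PCNA rose (4.26 % of all genes), at 0.60 (edgeR adjusted p = 1.56e-07), and MCM5 and MCM6 fell (5.97 % of all genes), at -0.69 (edgeR adjusted p = 4.14e-08) and -0.62 (edgeR adjusted p = 5.91e-05). H2O2 was lower in 3 of 3 replicate numbers for 18 members and higher for 13, where 34.5 % and 33.7 % of all genes did so. CCNE1, the cyclin that starts S phase with CDK2, had an adjusted p under 0.05 at a log2 fold change below the limit, 0.50 ± 0.13 (SE, edgeR adjusted p = 0.0351).

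PCNA in control cells was at 75.2, 121 and 138 CPM untreated, 116, 156 and 177 with NACET and 124, 183 and 194 with H2O2. PCNA in NRF2 ΔC cells was at 92.3, 136 and 201 CPM untreated, 115, 164 and 199 with NACET and 158, 257 and 244 with H2O2. PCNA was higher with H2O2 than untreated in every replicate number of both lines, and the change in NRF2 ΔC cells was 0.60 ± 0.28 (SE, edgeR adjusted p = 0.197), or 0.63 (edgeR adjusted p = 1.54e-07) with the block. MCM5 in control cells was at 66.5, 98.0 and 124 CPM untreated, 95.8, 152 and 165 with NACET and 40.4, 62.1 and 76.8 with H2O2. MCM5 in NRF2 ΔC cells was at 68.3, 162 and 174 CPM untreated, 114, 175 and 215 with NACET and 43.1, 81.4 and 104 with H2O2. MCM5 was lower with H2O2 in every replicate number of both lines. CCNE1 in control cells was at 10.2, 11.5 and 11.1 CPM untreated, 14.0, 16.1 and 12.4 with NACET and 13.6, 16.9 and 15.9 with H2O2. CCNE1 in NRF2 ΔC cells was at 12.1, 12.7 and 13.4 CPM untreated, 15.2, 14.7 and 14.8 with NACET and 14.9, 14.5 and 20.5 with H2O2. In control cells all H2O2 values of CCNE1 were above all untreated values.

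The difference between the lines in the response to H2O2 was tested as an interaction. No member was called without a block (0.0143 % of all genes lower), 5 were under an unadjusted p of 0.05 (5.76 % of all genes), and DESeq2 called 0. With 1 block of the replicate number over both lines POLE2, MCM10, DTL and RFC3 were lower in NRF2 ΔC cells (4 members, against 0.894 % of all genes). Since numbers paired samples only within a line, a block within each cell line was added after the data were seen, and it called 18 members, all lower (4.49 % of all genes). These were CDC6, ORC1, ORC6 and MCM4 of licensing, MCM10 and GINS1, POLE, POLE2 and POLD3, RFC3, RFC4 and FEN1, RRM2, E2F2, and UHRF1, CHAF1A, DTL and CLSPN. Of 47 estimates 42 were below 0, with a median of -0.44. PCNA (0.03), TK1 (0.05), TYMS (0.02), LIG1 (0.10) and CDT1 (0.11) were the other 5. The estimates share the same untreated samples, and without replicate 3 of untreated NRF2 ΔC cells the median was -0.19.

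**Figure D2:**
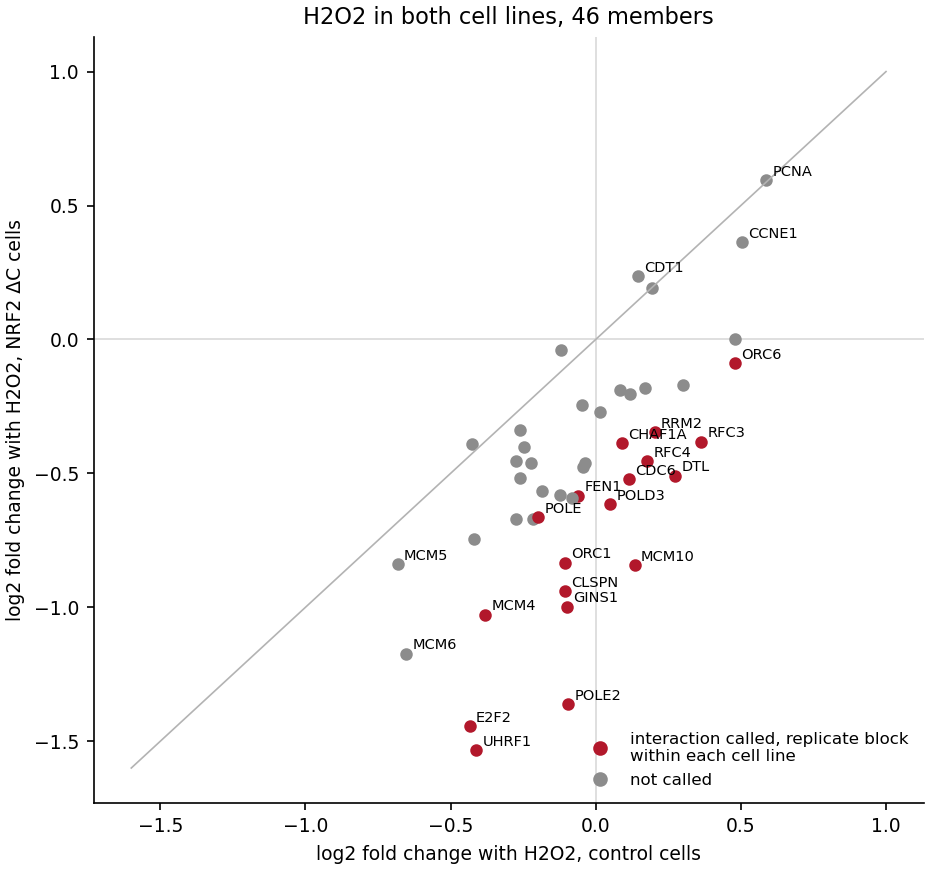
Log2 fold change with H2O2 in control cells (x axis) and NRF2 ΔC cells (y axis) of the 46 members tested in both, with the line of equal change in grey and, in red, members whose interaction was called with the block within each cell line. The 18 red points lie below the line because red marks members called lower in NRF2 ΔC cells. PCNA, at 0.59 and 0.60, lies next to the line.

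MCM10 in control cells was at 13.2, 23.3 and 22.2 CPM untreated, 33.3, 41.6 and 34.5 with NACET and 17.7, 25.5 and 21.1 with H2O2. MCM10 in NRF2 ΔC cells was at 15.9, 29.6 and 35.8 CPM untreated, 32.0, 38.8 and 47.5 with NACET and 11.2, 14.3 and 20.4 with H2O2. MCM10, which helps to fire the helicase, changed with H2O2 by 0.13 (control) and -0.84 (NRF2 ΔC) on the log2 scale, an interaction of -0.95 (edgeR adjusted p = 0.00142) with the block within each line. RFC3 in control cells was at 17.4, 32.2 and 30.7 CPM untreated, 31.7, 44.3 and 37.2 with NACET and 25.9, 40.2 and 36.7 with H2O2. RFC3 in NRF2 ΔC cells was at 22.2, 42.8 and 47.3 CPM untreated, 35.4, 56.5 and 49.6 with NACET and 21.4, 34.4 and 31.8 with H2O2. RFC3, a subunit of the clamp loader, had log2 fold changes of 0.36 and -0.38, and every replicate number was higher with H2O2 in control cells and lower in NRF2 ΔC cells. Its interaction within lines was -0.71 (edgeR adjusted p = 0.00515), and that of POLE2 was -1.25 (edgeR adjusted p = 0.00112).

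Set directly against the oxidant, the antioxidant groups had the most DEGs among the members of all comparisons made with edgeR on pairs of groups without the block. In control cells 13 members were higher with NACET than with H2O2 and 0 lower (2.25 % of all genes higher), and with the block 22 were higher (4.86 % of all genes). The single fit of all 18 samples called 3 members higher (3.46 % of all genes in either direction). In NRF2 ΔC cells 19 of 46 were higher and 0 lower (5.09 % of all genes higher), and with the block 33 (9.79 % of all genes). DESeq2 called 30 there (7.68 % of all genes in either direction). The 9 members called in both lines were CDC6, E2F2, MCM3, MCM4, MCM6, MCM10, POLA2, RFC4 and UHRF1, which is 69.2 % of the control and 47.4 % of the NRF2 ΔC members called. Groups did not overlap, with NACET higher, for 24 members in control cells (13.4 % of all genes) and 27 in NRF2 ΔC cells (15.5 % of all genes). The medians were 0.51 and 0.79.

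The largest of these differences in control cells were those of ORC1 (1.34 ± 0.21 SE, edgeR adjusted p = 0.0141) and MCM6 (1.33 ± 0.13 SE, edgeR adjusted p = 0.00282). MCM5 followed with 1.22, E2F2 with 1.16, E2F1 with 1.12, UHRF1 with 1.04, MCM4 with 1.02 and CDC6 with 0.92. The other 5 were PRIM1, MCM3, MCM10, POLA2 and RFC4, from 0.84 to 0.74. For the NRF2 ΔC line, UHRF1 (1.99 ± 0.29 SE, edgeR adjusted p = 0.00829) and E2F2 (1.75 ± 0.45 SE, edgeR adjusted p = 0.049) led, followed by POLE2 (1.68), MCM6 (1.58), MCM4 (1.39), MCM10 (1.38), CLSPN (1.34) and CDC6 (1.26). The other 11 ran from GINS2 (1.22) to TIPIN (0.67). E2F2 in control cells was at 5.78, 9.26 and 13.1 CPM untreated, 11.3, 16.6 and 17.9 with NACET and 5.71, 7.59 and 7.40 with H2O2. E2F2 in NRF2 ΔC cells was at 5.51, 18.3 and 20.6 CPM untreated, 11.7, 17.1 and 26.1 with NACET and 2.31, 5.85 and 8.28 with H2O2. E2F2, a second activating E2F, had no overlap between NACET and H2O2 in either line.

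These counts also moved with single libraries. In control cells 2 members were DEGs without replicate 1 or without replicate 2 of the H2O2 group, 8 without its replicate 3, and 1 without replicate 2 of the NACET group. For the NRF2 ΔC line, 2 were DEGs without replicate 2 of the H2O2 group and 5 without replicate 2 or 3 of the NACET group. Leaving out any other library gave 9 or 16 members in control cells and 17 to 21 in NRF2 ΔC cells. Without replicate 1 of both groups the counts were 10 and 32, of which 1 in NRF2 ΔC cells was lower with NACET. Of all genes, 0.919 % in control and 12.3 % in NRF2 ΔC cells were then called in either direction.

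**Figure D3:**
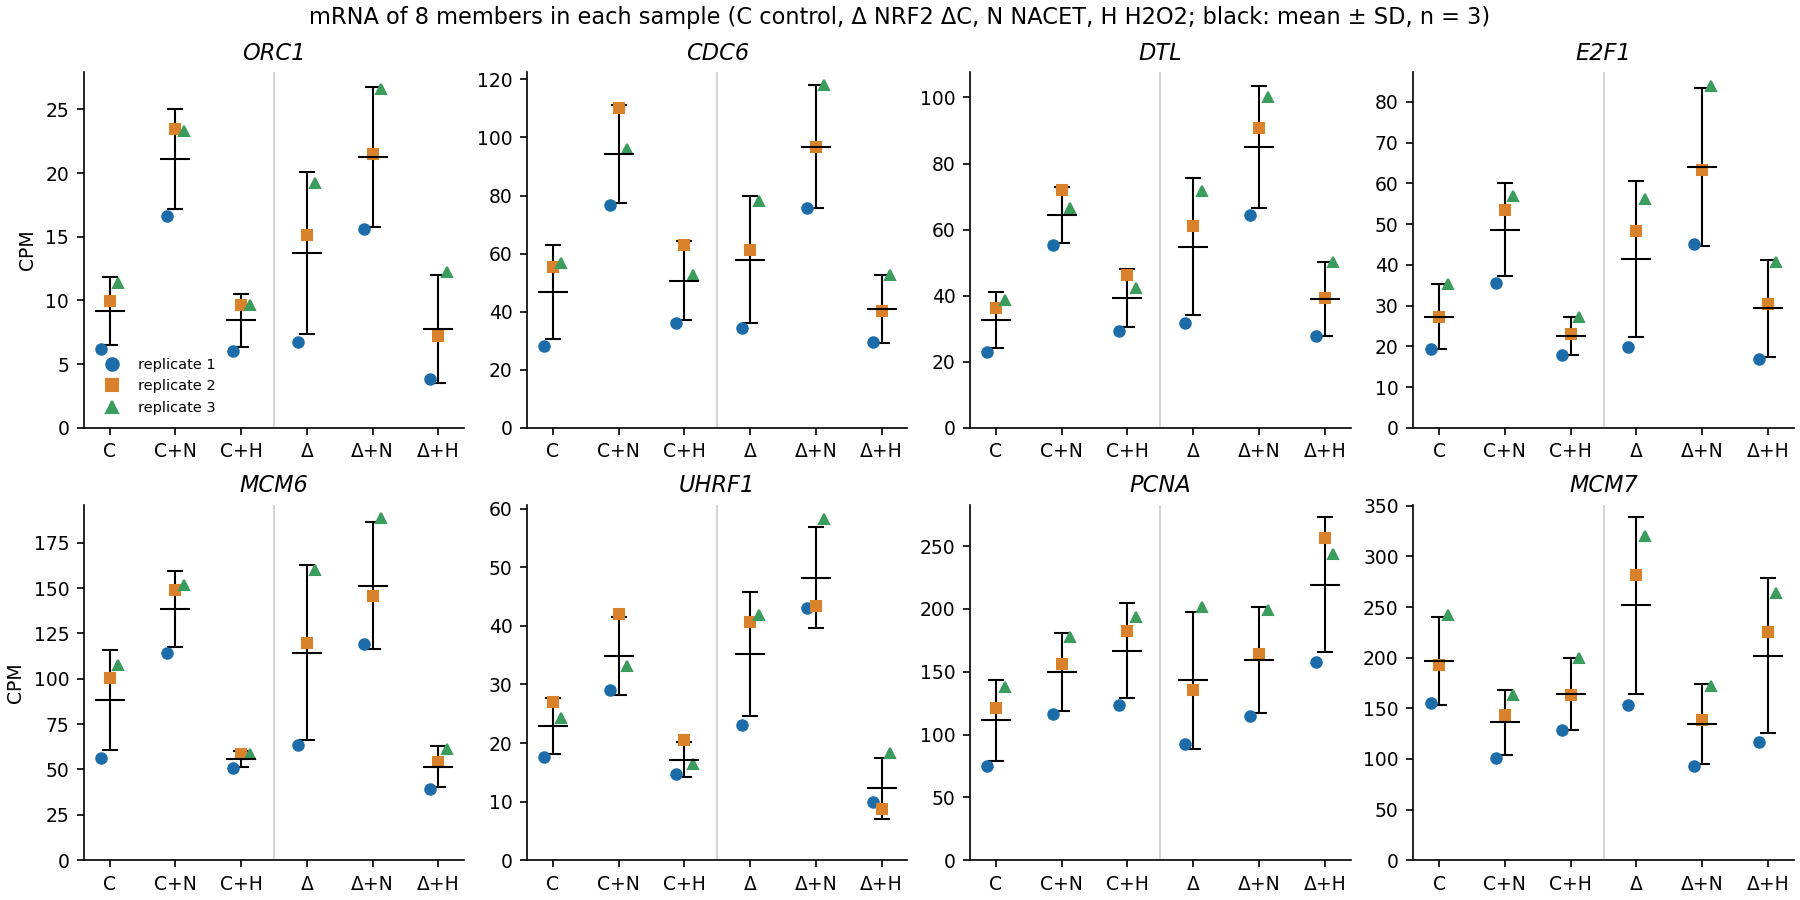
CPM (y axis, from 0) of ORC1, CDC6, DTL, E2F1, MCM6, UHRF1, PCNA and MCM7 in each sample of the 6 groups (x axis), with symbols for replicate numbers and black mean ± SD (n = 3). ORC1 and MCM6 were higher in every NACET sample than in any H2O2 sample of the same line, PCNA had its highest group mean with H2O2, and MCM7 its lowest with NACET.

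The edited cells were then compared with control cells, both untreated. No member was a DEG (0.729 % of all genes higher and 3.12 % lower), 3 were under an unadjusted p of 0.05 (13.7 % of all genes), and DESeq2 called 0. Of the 47, 46 had a log2 fold change above 0, with a median of 0.38 beside 0.01 over all genes. Without replicate 1 of untreated NRF2 ΔC cells 6 were DEGs. Without replicate 1 of both lines 9 were, 8 of them higher and 1 lower in NRF2 ΔC cells (6.4 % of all genes in either direction). The member below 0 in the fit of all replicates was E2F8, a repressive E2F with few counts, from 1 to 25 reads per library. E2F8 in control cells was at 0.578, 0.916 and 1.00 CPM untreated, 0.845, 1.32 and 0.741 with NACET and 0.236, 0.981 and 0.981 with H2O2. E2F8 in NRF2 ΔC cells was at 0.244, 0.155 and 0.369 CPM untreated, 0.0418, 0.385 and 0.228 with NACET and 0.0514, 0.103 and 0.171 with H2O2. Its change was -1.70 ± 0.42 (SE, edgeR adjusted p = 0.0698), and the untreated values of the lines did not overlap, but it failed the low-count filter of the comparisons within NRF2 ΔC cells. DTL had the largest positive change, 0.75 ± 0.29 (SE, edgeR adjusted p = 0.301). With a block of the replicate number, which was not shown to pair the lines, DTL and E2F8 passed the limits.

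By role, the medians with NACET in control cells ran from 0.10 for nucleotide supply to 0.71 for the G1/S regulators. The median of the 10 origin licensing genes with NACET was 0.64 (control) and 0.38 (NRF2 ΔC), and with H2O2 it was -0.25 and -0.60. MCM2 in control cells was at 80.7, 114 and 127 CPM untreated, 107, 165 and 168 with NACET and 69.9, 99.7 and 101 with H2O2. MCM2 in NRF2 ΔC cells was at 81.1, 156 and 161 CPM untreated, 132, 171 and 219.7 with NACET and 71.8, 102 and 131 with H2O2. MCM2, another ring subunit, was higher with NACET than with H2O2 in each replicate number, by 0.72 and 0.80 on the log2 scale, and passed the limits in both lines with the block, with DESeq2 and without replicate 1 of both groups, but not in the fit of all replicates without a block. CDT1 had log2 fold changes with NACET of 0.65 (control) and 0.61 (NRF2 ΔC), and with H2O2 of 0.15 and 0.24. ORC6, the smallest subunit of the origin complex, had 0.76 and 0.67 with NACET, and MCM3 had 0.54 and 0.36.

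The 6 genes of helicase activation had medians with NACET of 0.48 (control) and 0.30 (NRF2 ΔC), and with H2O2 of 0.04 and -0.50. CDC45 in control cells was at 12.4, 22.1 and 28.2 CPM untreated, 17.4, 31.1 and 30.8 with NACET and 13.0, 23.4 and 23.8 with H2O2. CDC45 in NRF2 ΔC cells was at 13.3, 30.7 and 42.4 CPM untreated, 21.0, 31.4 and 40.0 with NACET and 14.3, 24.5 and 34.9 with H2O2. CDC45 had no call in any comparison, and its replicates differed by over 2-fold within untreated groups. GINS2 in control cells was at 16.3, 29.3 and 34.2 CPM untreated, 27.8, 44.7 and 47.9 with NACET and 13.3, 24.4 and 21.8 with H2O2. GINS2 in NRF2 ΔC cells was at 18.8, 35.9 and 49.7 CPM untreated, 31.6, 50.0 and 63.2 with NACET and 14.1, 20.4 and 28.5 with H2O2. GINS2 was above its H2O2 values in every NACET sample of both lines. GINS3 had log2 fold changes of 0.73 and 0.58 with NACET, and GINS4 of 0.31 and 0.16.

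Polymerase and primase genes had medians with NACET of 0.36 (control) and 0.19 (NRF2 ΔC), and all 8 were below 0 with H2O2 in NRF2 ΔC cells (median -0.60). POLA1 in control cells was at 25.3, 38.4 and 36.4 CPM untreated, 32.2, 40.3 and 34.7 with NACET and 26.3, 32.1 and 29.5 with H2O2. POLA1 in NRF2 ΔC cells was at 32.4, 44.6 and 52.3 CPM untreated, 34.3, 38.7 and 45.7 with NACET and 25.7, 28.3 and 34.8 with H2O2. POLA1, the catalytic subunit of polymerase alpha, had 0.11 ± 0.17 (SE, edgeR adjusted p = 0.78) with NACET in control cells and -0.56 ± 0.20 (SE, edgeR adjusted p = 0.105) with H2O2 in NRF2 ΔC cells. PRIM1, the catalytic primase subunit, rose with NACET in control cells with the block (0.77, edgeR adjusted p = 5.7e-13), whereas PRIM2 had 0.20. POLA2, POLE, POLD1 and POLD3 had log2 fold changes with H2O2 in NRF2 ΔC cells of -0.67, -0.66, -0.46 and -0.61.

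Among the clamp, its loader and the enzymes that join Okazaki fragments, RFC4 had the largest change with NACET, 0.91 (control) and 0.70 (NRF2 ΔC). RFC2 and RFC5 had 0.35 and 0.46 in control cells. FEN1 in control cells was at 45.9, 84.2 and 89.5 CPM untreated, 76.1, 121 and 119 with NACET and 51.7, 81.1 and 77.3 with H2O2. FEN1 in NRF2 ΔC cells was at 55.9, 114 and 143 CPM untreated, 92.4, 138 and 173 with NACET and 45.9, 68.4 and 96.9 with H2O2. FEN1, the flap endonuclease, was higher with NACET than with H2O2 by 0.61 and 0.95 on the log2 scale, called with the block in both lines. LIG1, the ligase of the lagging strand, stayed between -0.24 and -0.04 under either treatment in both lines.

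The 4 genes of nucleotide supply had no call in any comparison of 2 groups, with or without the block. Their medians with NACET were 0.10 (control) and -0.04 (NRF2 ΔC). RRM2 in control cells was at 43.0, 86.8 and 94.9 CPM untreated, 68.1, 108 and 104 with NACET and 58.3, 101 and 98.5 with H2O2. RRM2 in NRF2 ΔC cells was at 57.6, 110.5 and 136 CPM untreated, 81.4, 124 and 145 with NACET and 50.2, 74.3 and 118 with H2O2. RRM2, the S phase subunit of ribonucleotide reductase, ranged in log2 fold change against untreated from -0.34 (H2O2, NRF2 ΔC cells) to 0.33 (NACET, control cells), and had 0.55 for NACET against H2O2 in NRF2 ΔC cells. TYMS in control cells was at 43.3, 69.3 and 79.0 CPM untreated, 46.8, 71.9 and 81.4 with NACET and 56.5, 82.7 and 79.3 with H2O2. TYMS in NRF2 ΔC cells was at 56.3, 80.2 and 103 CPM untreated, 57.6, 69.5 and 112 with NACET and 68.8, 93.5 and 115 with H2O2. TYMS, thymidylate synthase, changed by 0.19 and 0.19 with H2O2. Its largest overlap with a single exon of ENOSF1, on the opposite strand, covers 29.7 % of its exon length, so its counts are uncertain. RRM1 and TK1 had log2 fold changes with NACET in control cells of 0.13 and 0.00. Per kilobase of exon TK1 was the most abundant member in untreated control cells (103 CPM per kb), PCNA had 79.3, the median member 6.94 and E2F8 0.201.

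The G1/S regulators had medians with NACET of 0.71 (control) and 0.41 (NRF2 ΔC). They include CCNE2, the second cyclin E. CCNE2 in control cells was at 8.80, 15.4 and 15.2 CPM untreated, 20.0, 27.9 and 19.6 with NACET and 8.19, 17.4 and 16.9 with H2O2. CCNE2 in NRF2 ΔC cells was at 10.9, 20.1 and 22.3 CPM untreated, 24.8, 27.2 and 26.7 with NACET and 12.1, 17.2 and 17.7 with H2O2. Every NACET value of CCNE2 was above every H2O2 value of the same line, and it was a DEG in NRF2 ΔC cells (0.77 ± 0.17 SE, edgeR adjusted p = 0.0325). Its largest overlap with a single exon of INTS8, on the opposite strand, covers 37.1 % of its exon length, so its counts are uncertain too. In the last group, CHAF1A and CHAF1B, which place histones on new DNA, had log2 fold changes with NACET in control cells of 0.66 and 0.55, and TIPIN, of the fork protection complex, had 0.84. SLBP in control cells was at 67.1, 83.5 and 93.8 CPM untreated, 91.3, 109.6 and 115 with NACET and 77.8, 88.1 and 92.5 with H2O2. SLBP in NRF2 ΔC cells was at 77.0, 102 and 114 CPM untreated, 101, 129 and 140.3 with NACET and 75.1, 92.6 and 92.6 with H2O2. SLBP, which binds histone mRNA, was higher with NACET in every replicate number, by 0.38 and 0.32 on the log2 scale, under the fold limit. All 7 genes of that group were above 0 with NACET in both lines, with medians of 0.66 (control) and 0.43 (NRF2 ΔC).

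Members were set beside 3 further lists of cell cycle genes, chosen like the members with earlier results of these data known. Of 34 other replication genes measured, 0 were DEGs with NACET in control cells and 4 rose with the block, ATAD5 (0.74), GMNN (0.69), DNA2 (0.68) and DSCC1 (0.62), with a median of 0.23. In NRF2 ΔC cells 12 of them were higher and 1 lower with NACET than with H2O2, the higher ones led by CDC7 (1.20), HELLS (1.17), GMNN (1.16), WDHD1 (1.16) and ATAD5 (1.06). CDC7 (-0.92) and HELLS (-0.93) fell with H2O2 in NRF2 ΔC cells. The lower one, RRM2B, a stress-induced subunit of ribonucleotide reductase, rose with H2O2 in control (0.74 ± 0.11 SE, edgeR adjusted p = 0.00571) and NRF2 ΔC cells (0.88 ± 0.20 SE, edgeR adjusted p = 0.0281).

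The list of 16 G2 and mitosis genes had medians with NACET of 0.06 (control) and -0.07 (NRF2 ΔC), with 0 DEGs with or without the block and 0 genes under an unadjusted p of 0.05 in either. With H2O2 in NRF2 ΔC cells 14 of 16 fell (all 16 with the block), with a median of -1.72, led by PLK1 (-2.56), CDC20 (-2.42), BUB1 (-2.27), MKI67 (-2.04), TOP2A and AURKA (-1.92). In control cells none of them was a DEG with H2O2, 0 were under an unadjusted p of 0.05, and the median was -0.16. The interaction of H2O2 and cell line had a median of -1.64 over this list. With 1 replicate block over both lines 14 of 16 were called lower (0.894 % of all genes), and 0 without a block (0.0143 % of all genes). Replicate numbers were not shown to pair samples between the lines.

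Among G1 control genes CDKN1A, the gene for p21, fell with NACET in control cells and rose with H2O2 in both lines. It stood at 312, 242 and 268 CPM in untreated, 155, 132 and 135 in NACET-treated and 880.2, 872 and 888 in H2O2-treated control cells. The NRF2 ΔC values were 462, 285 and 282 untreated, 274, 180.3 and 192 with NACET and 1549, 1686 and 1603 with H2O2. No values of the 3 treatments overlapped within a line. The log2 fold changes with NACET were -0.95 ± 0.12 (SE, edgeR adjusted p = 0.0133) and -0.69 ± 0.24 (SE, edgeR adjusted p = 0.178), the latter called with the block, and with H2O2 1.69 ± 0.11 (SE, edgeR adjusted p = 0.000836) and 2.21 ± 0.21 (SE, edgeR adjusted p = 0.00151). CDKN1B, the gene for p27, fell with NACET in both lines (-0.70 and -0.77). With the block CDC25A, the phosphatase that activates CDK2, and E2F7, a repressive E2F, also rose with NACET in both lines, CDKN1C fell in control cells, and CCND1 and E2F3 rose in NRF2 ΔC cells. With H2O2 in NRF2 ΔC cells, 5 genes of the list fell, led by CDKN2C (-1.66), CDKN2D (-1.29) and RBL1 (-0.78), and E2F7 (1.05) and E2F5 (0.70) rose beside CDKN1A. In control cells CDKN1C (-1.74), CDKN2D (-0.88) and CDKN2C (-0.75) fell with H2O2, and E2F5 (0.73) rose. The G2 and mitosis genes and CDKN1A moved with H2O2 beside the members in NRF2 ΔC cells, and their part in the values of the members was not tested.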

How the data were processed

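mRNA was measured in 18 samples, 3 in each of 6 groups taken from their labels. The authors prepared TruSeq libraries, sequenced single-end reads, mapped them with TopHat 2.1.0 to hg19, and counted reads on exons per gene with HTSeq-count 0.11.2 without regard to strand. They removed ribosomal RNA genes and deposited whole-number counts without normalization. The annotation is not given in the sources used here. Lines that name no gene (15.0 to 17.5 % of reads on no feature, 8.24 to 10.4 % mapped to several places, 0.955 to 1.18 % ambiguous) were left out. The depth per library is the count on genes, and at this depth the spread between replicates limits the precision of all but the lowest genes.

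Fits took the 6 samples of a pair of groups, or the 12 of an interaction, with edgeR 4.0.16 in R 4.3.3 (filterByExpr, TMM, quasi-likelihood test, Benjamini-Hochberg adjustment over all genes tested). DEGs had an adjusted p under 0.05 with an absolute log2 fold change not below 0.6, while interactions were called by the adjusted p. SE is the log2 fold change divided by the square root of the test's F. CPM used TMM over all 18 libraries, and log2 CPM a prior count of 2. The tests of NACET in control cells and of its interaction with cell line were tried on simulated counts. The spread there was set and not taken from these replicates, so the trial does not cover the shift of replicate 1.

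The members, the 3 further lists, the markers and the tests were chosen with earlier results of these data known. Values in every sample are given for 19 members fixed by role and for members called (at most 8 a comparison, by size), and for MCM7, which, like the 9 promoters shown, was chosen after values were seen. For the further lists the rule takes called genes, at most 6 a list by size of change, and CDKN1A in any case. Fewer are named for some comparisons, and some called with the block were added after values were seen. Whether replicate numbers pair samples was judged from correlations of deviations from group means of log2 CPM, with pairing taken where each exceeded 0.1. Alternatives were DESeq2 1.42.0, upper-quartile and RLE scaling, testing without the low-count filter, 1 fit of all 18 samples, the replicate block, no fold limit and leaving out each library. A block within each cell line and replicate 1 left out of every group were added after the data were seen. Promoters came from RefSeq (GRCh38.p14) and exon overlaps and lengths from GENCODE on hg19, whereas the authors' annotation may differ.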

Additional observations from a re-analysis of the deposited data

Results flagged for a closer look

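The response to H2O2 differed between the cell lines for 4 members in the test of the interaction with the replicate number as a block (edgeR quasi-likelihood test, 12 samples). The estimates, NRF2 ΔC minus control, were -1.25 for POLE2 (adjusted p = 0.027), -0.96 for MCM10 (adjusted p = 0.0495), -0.75 for DTL (adjusted p = 0.0399) and -0.72 for RFC3 (adjusted p = 0.0367). In the fit without a block none of the 4 was called, with edgeR adjusted p-values from 0.787 to 0.919. Each of the 4 was also called in 0 of 12 fits without a block that left out 1 library. With the block within each cell line, added after the data were seen, all 4 were called, where 4.49 % of all genes were called lower. POLE2 and MCM10 changed with H2O2 by -0.10 and 0.13 in control cells and by -1.36 and -0.84 in NRF2 ΔC cells, and DTL and RFC3 by 0.27 and 0.36 and by -0.51 and -0.38. CDKN1A rose with H2O2 in both lines, by 1.69 and 2.21, and the 16 G2 and mitosis genes had medians of -0.16 and -1.72, and the part of either in the 4 values was not tested.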

How the results depend on the processing

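The median log2 fold change of the members kept its sign and stayed within the spread between replicates in every comparison under DESeq2, RLE, upper-quartile scaling, no filter, 1 fit of all samples, no fold limit, the block and replicate 1 left out of every group. Leaving out 1 library moved it between 0.34 and 0.66 (NACET, control cells), -0.30 and 0.12 (H2O2, control cells), 0.10 and 0.58 (NACET, NRF2 ΔC cells), -0.71 and -0.24 (H2O2, NRF2 ΔC cells), 0.19 and 0.66 (NRF2 ΔC against control), 0.41 and 0.69, and 0.62 and 1.04 (NACET against H2O2 in control and NRF2 ΔC cells), -0.44 and 0.015, and -0.65 and -0.19 (interactions of NACET and H2O2).

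Counts of members called moved more, and the cause was not tested. With the replicate block they were 20, 3, 10 and 16 for NACET and H2O2 in control and for NACET and H2O2 in NRF2 ΔC cells (2, 0, 0 and 6 without), 2 between untreated lines (0), 22 and 33 for NACET against H2O2 in control and NRF2 ΔC cells (13 and 19), and 4 for the H2O2 interaction (0), or 18 with the block within each line. The share of all genes called also rose with the block. In control cells it went from 1.39 to 3.65 % higher (NACET) and from 3.37 to 5.97 % lower (H2O2). In NRF2 ΔC cells it went from 0.458 to 3.67 % higher and from 5.55 to 11.5 % lower. For NACET against H2O2 the higher share went from 2.25 to 4.86 % and from 5.09 to 9.79 %. The lower share of the H2O2 interaction was 0.0143 % without a block, 0.894 % with it and 4.49 % within lines. In control cells DESeq2 called 14 (NACET) and 2 (H2O2), 1 with NACET in NRF2 ΔC cells and 30 for NACET against H2O2 there. Over all genes the shares it called in either direction were 3.17, 5.36, 3.14 and 7.68 %, in that order. The fit of all 18 samples called 1 with NACET and 3 for NACET against H2O2 in control cells (2.95 % and 3.46 % of all genes). Without the fold limit 1 was called with H2O2 in control cells, where 1809 of 13691 genes were. With replicate 1 left out of every group, 0 (NACET) and 1 (H2O2) were called in control cells, 2 and 19 in NRF2 ΔC cells, 9 between untreated lines and 32 for NACET against H2O2 in NRF2 ΔC cells. Of all genes, 17.9 % were called there with H2O2 in NRF2 ΔC cells, 6.4 % between untreated lines and 12.3 % for NACET against H2O2 in NRF2 ΔC cells. Leaving out 1 library gave 0 to 2 and 0 to 1 in control cells, 0 to 1 and 0 to 15 in NRF2 ΔC cells, 0 to 6 between lines, 1 to 16 and 2 to 21 for NACET against H2O2, and 0 for both interactions. Over members called with or without the block, leaving out a library from the fit without a block lost 127 calls and gained 20. No gene reversed direction. The other 537 cases include genes that were not called and stayed so, so they do not measure how stable the calls were. Members called in the main fit stayed so in from 1 of 6 fits (ORC1, NACET in control cells) to 6 of 6 (MCM6, NACET against H2O2 in control cells). Where leaving out a library leaves 2 samples in a group, the spread comes from the remaining 5 samples.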
